A study of Mus musculus with 8 samples.

Results

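The genes described here are 46 genes of DNA replication and S phase, the phase of the cell cycle in which the genome is copied. They were chosen by gene symbol, and each needed at least 1 FPKM (a number of fragments divided by transcript length and library size) in at least 2 of 8 libraries. All 46 met that minimum, among 9782 genes that did so out of 23746 rows per table. The libraries were RNA-seq of CD8+ T cells from BALB/c mice that bound the AH1 tetramer, a reagent that marks T cells specific for a peptide of the envelope protein of murine leukaemia virus. Genotype (wild type or Cd69-/-) and sorted subset (stem-like or term diff, as the labels name them) gave 4 groups: wild type stem-like, Cd69-/- stem-like, wild type term diff and Cd69-/- term diff, each with 2 libraries. The labels give no age or sex of the mice, tumour or sort gates, and they do not say whether the libraries of a group came from separate mice, so the p-values below measure only the spread between these samples.

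Replication starts at origins that are licensed in G1, when the origin recognition complex with Cdc6 and Cdt1 loads the ring of Mcm2 to Mcm7, the core of the replicative helicase. At S phase entry Cdc45 and the GINS complex switch that helicase on, polymerases copy the strands behind it on the sliding clamp Pcna, and ribonucleotide reductase and thymidylate synthase supply nucleotides. E2F transcription factors, which retinoblastoma family proteins can hold back, are the known drivers of many of these genes. Exhausted CD8+ T cells are commonly described as a stem-like pool that renews itself and gives rise to dividing and then terminally differentiated progeny.

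Promoter stretches are shown for the 5 genes with the smallest p between the wild type subsets among those that hold the letters of an E2F site, a feature that was not used to choose the 46. The search covered 250 bases before to 50 after each start in RefSeq (build GRCm38.p6, the assembly also called mm10, which the deposited tables used), for the letters TTTCCCGC, TTTCGCGC, TTTGCCGC or TTTGGCGC on either strand. Each stretch is written 5′ to 3′ on the gene's own strand, with the matching letters in capitals, and stops at most 30 bases past the start.
Clspn, chr4:126556951-126557009, plus strand: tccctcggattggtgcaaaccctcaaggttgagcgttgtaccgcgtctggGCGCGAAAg
Dnmt1, chr9:20952824-20952853, minus strand: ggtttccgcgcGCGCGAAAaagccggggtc
Mcm5, chr8:75109306-75109413, plus strand: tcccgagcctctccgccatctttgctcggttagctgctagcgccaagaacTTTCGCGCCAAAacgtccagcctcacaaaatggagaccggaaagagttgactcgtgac
Orc1, chr4:108579377-108579483, plus strand: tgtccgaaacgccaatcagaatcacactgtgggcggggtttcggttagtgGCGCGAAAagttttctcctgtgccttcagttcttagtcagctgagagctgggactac
Mcm3, chr1:20820283-20820343, minus strand: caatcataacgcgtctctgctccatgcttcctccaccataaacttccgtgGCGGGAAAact
In Mcm5 the run of capitals holds TTTCGCGC and, on the opposite strand and overlapping it, TTTGGCGC. Dnmt1 has several RefSeq starts, and its stretch, 219 bases before one of them, is kept short for that reason. The match begins 153 bases before the start in Mcm5 and 27 before it in Orc1. In Clspn and Mcm3 it lies past the start, at bases 22 and 20 counted from it. The windows of Dnmt1 and Mcm3 held 2 matches each, of which 1 is shown. A RefSeq window was found for 39 of the 46 genes, and 15 of the 39 (38.5%) held an E2F match, against 2.60% of the 27025 genes with a window and 5.17% of the 6905 such genes that met the expression minimum. The holders were Cdc6, Cdt1, Clspn, Dnmt1, E2f2, Lig1, Mcm3, Mcm5, Mcm6, Mcm7, Orc1, Pola1, Pold1, Rfc3 and Uhrf1. CCAAT, searched the same way, was in 24 of the 39 (61.5%, against 43.6% of expressed genes), and GGGCGG in 29 (74.4%, against 70.1%). A match describes letters in a window and does not show that a factor binds there.

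The deposited confidence limits implied 2055402 to 2591061 fragments per library, so depth was similar across libraries. Cd69 itself was at 22.5 and 23.4 FPKM in wild type stem-like, 10.4 and 12.9 in wild type term diff, and 2.21 to 3.69 in the 4 Cd69-/- libraries, on the side of its label in every library. Markers of CD8+ T cells were present throughout (8 of 8, summing to 1063 to 1573 FPKM), and the 6 stem-like markers summed to 182 to 232 FPKM in stem-like against 8.72 to 12 in term diff libraries. Of other cell types, the B cell list summed to at most 1.12 and the neutrophil list to at most 1.19 FPKM. The myeloid list summed to 6.70 to 8.6 FPKM in stem-like and 20.0 to 32.1 in term diff libraries, of which Fcer1g alone was 17.1 to 29.8 in term diff, while Csf1r and Itgam stayed at or below 0.418. Cd68 and Lyz2, the other members that met the expression minimum, were at 3.02 to 3.32 and 0.881 to 3.11 in stem-like, and at 0.964 to 2.70 and 0.260 to 1.48 in term diff. The list of CD4 and regulatory T cells summed to 115 to 124 FPKM in stem-like and 76.0 to 117 in term diff. Ctla4 alone was at 62.4 to 107, with Cd4 at 1.38 to 5.52 and Foxp3 at 0.211 to 1.14. Il2ra was at 12.7 to 14.7 in stem-like and 3.98 to 6.45 in term diff, and Cd40lg at 1.91 to 3.16 and 0.210 to 0.953. Ikzf2 stood at 9.12 and 9.40 in wild type stem-like and 3.69 and 5.31 in wild type term diff. In Cd69-/- it was at 4.02 and 4.39, then 2.01 and 1.69. In the fits below these last 3 genes were called lower in term diff in both genotypes, and Ikzf2 lower in Cd69-/- averaged over the subsets. The NK cell list summed to 19.8 to 27.3 FPKM in stem-like and 27.8 to 38 in term diff libraries, and the erythroid list to at most 2.75. In the NK cell list Klre1 was at 14.1 to 21.5 in stem-like and 25.1 to 36.4 in term diff. Eomes went the other way (4.82 to 6.84, then 1.32 to 4.68), and Ncr1, Klrb1c and Gata2 stayed at or below 0.375. The list of tumour and stroma summed to 27.9 to 35.3 FPKM in stem-like and 8.83 to 11.9 in term diff, most of it Igfbp7 and Pecam1, and Epcam stayed at or below 0.715. Small RNA genes held 62.4% and 54.9% of the FPKM in the replicate 2 libraries of wild type stem-like and wild type term diff, and 76.9% to 83.9% in the other 6. Their part in the results below was not tested beyond the alternatives given.

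The replication genes stood highest in the 2 wild type term diff libraries. Relative to each gene's own mean over the 8 libraries, on the log2(FPKM + 1) scale, the median gene was at 0.26 and 0.48 in wild type term diff, at -0.27 and -0.27 in wild type stem-like, at -0.28 and -0.05 in Cd69-/- stem-like, and at 0.03 and 0.09 in Cd69-/- term diff. Both wild type term diff libraries were above the other 6 for 31 of the 46 genes, against 11.6% of all genes. The highest library was wild type term diff replicate 2 for 37 genes (23.2% of all genes), and it exceeded replicate 1 of its group for 39 (58.3% of all genes). Cd69-/- stem-like replicate 2 likewise exceeded its partner for 38 (52.8% of all genes). The spread within these groups therefore ran in 1 direction for most of the genes.

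**Figure D1:**
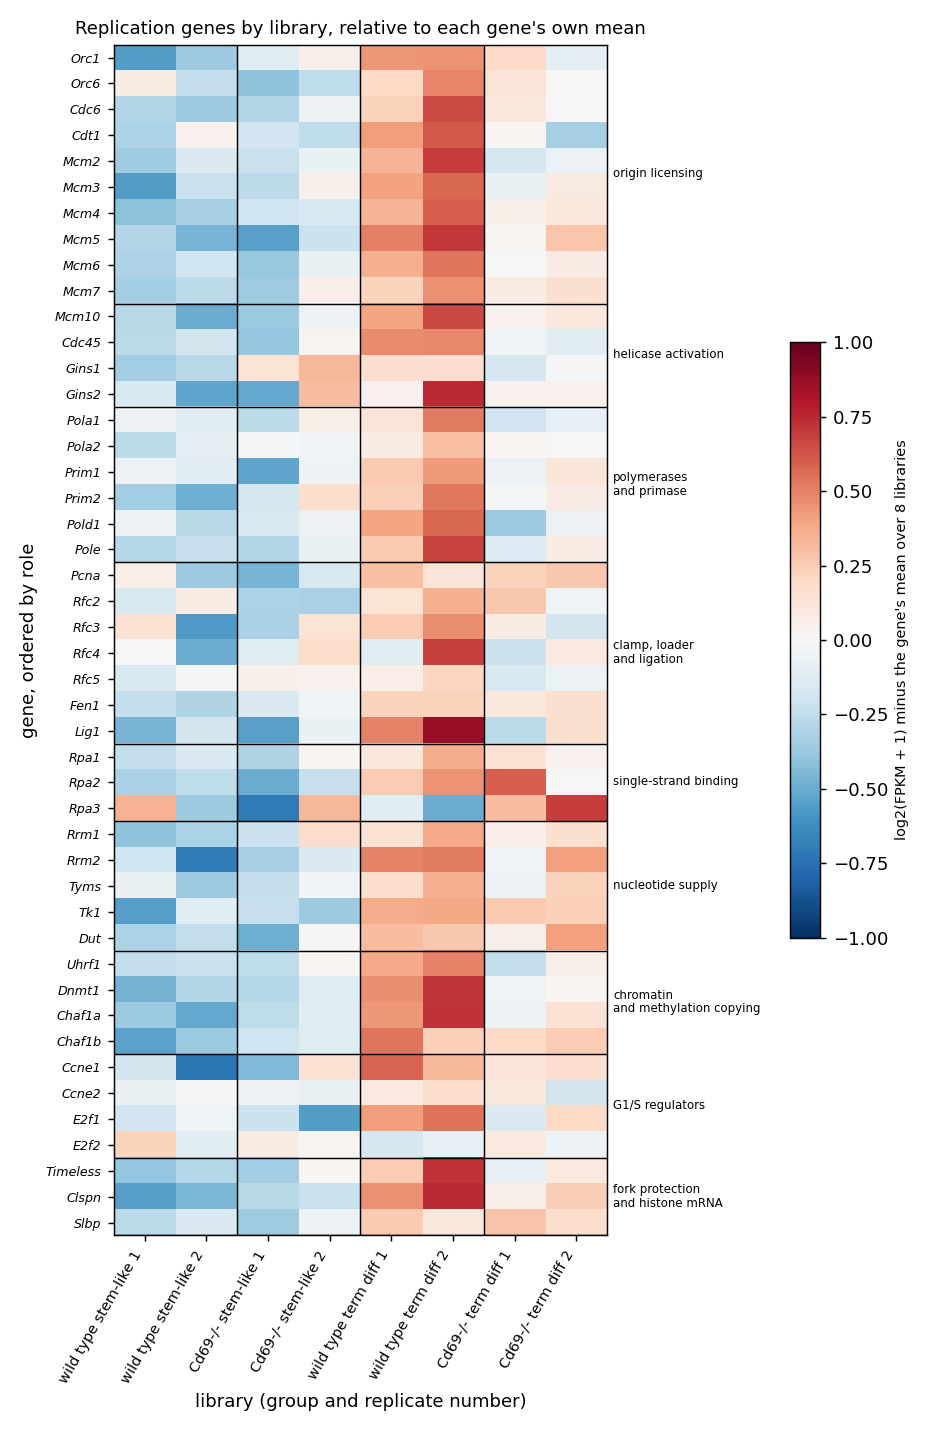
Level of the 46 genes (rows, ordered by role) in the 8 libraries (columns), as log2(FPKM + 1) minus the gene's mean over the 8 libraries (colour scale, -1 to 1). The columns of wild type term diff are red for most genes (above their own mean for 43 and 44 of 46), those of wild type stem-like are mostly blue (above it for 5 and 2), and those of Cd69-/- term diff lie near 0.

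In wild type cells the question was whether replication genes differ between the term diff and the stem-like subset. On the log2(FPKM + 1) scale, in limma with Benjamini-Hochberg adjustment over all genes, 27 of the 46 genes rose in term diff and 0 fell, against 7.24% of all genes that rose and 5.83% that fell. At unadjusted p under 0.05, 38 were higher and 0 lower (17.1% and 10.9% of all genes). The median difference of the 46 was 0.65, against 0.06 over all genes, and 44 of 46 differences were above 0 (57.4% of all genes). The libraries of the groups did not overlap for 43 of the 46 genes, all higher in term diff (33.4% of all genes). In bulk RNA, more cells in S phase and more RNA per cell cannot be told apart. Differences below are term diff minus stem-like in wild type on that scale, ± the standard error of the fit (n = 2 per group).

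Among the 10 licensing genes 9 rose. Orc1, the largest subunit of the origin recognition complex, was at 0.618 and 0.855 FPKM in wild type stem-like, 2.25 and 2.27 in wild type term diff, 1.20 and 1.47 in Cd69-/- stem-like and 1.73 and 1.23 in Cd69-/- term diff. It rose by 0.91 ± 0.16 (adjusted p = 0.0088), with the wild type term diff pair above and the wild type stem-like pair below all other libraries. Cdc6, the loader ATPase, was at 0.989 and 0.893, then 1.87 and 2.84 in wild type, and at 0.993 and 1.35, then 1.63 and 1.44 in Cd69-/- (stem-like first, then term diff, the order kept below). It rose by 0.77 ± 0.18 (adjusted p = 0.026). Cdt1, its partner, rose by 0.66 ± 0.17 (adjusted p = 0.040), while Orc6 did not pass the threshold (0.42 ± 0.16, adjusted p = 0.13).

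All 6 subunits of the helicase ring rose in wild type. Mcm2 was at 10.3 and 12.1 FPKM in stem-like and 17.3 and 22.5 in term diff of wild type, and at 11.4 and 12.8, then 11.8 and 12.9 in Cd69-/-. The Cd69-/- subsets overlapped, and the wild type rise was 0.76 ± 0.15 (adjusted p = 0.015). Mcm3 was at 15 and 19.1, then 30.01 and 34.0 in wild type and at 18.5 and 23.3, then 21.3 and 24 in Cd69-/-, with a wild type rise of 0.88 ± 0.16 (adjusted p = 0.011). Mcm4 (chr16:15623897-15637400) was at 10.4 and 11.1, then 18.2 and 22.1 in wild type and at 12.2 and 12.7, then 14.8 and 15.3 in Cd69-/-. Its pairs were close and no 2 groups overlapped, and the wild type rise was 0.84 ± 0.12 (adjusted p = 0.0040). Mcm5 (chr8:75109528-75128439) was at 10.2 and 8.96, then 18.4 and 21.5 in wild type and at 8.42 and 10.9, then 12.9 and 15.7 in Cd69-/-. The genotypes overlapped in stem-like but not in term diff, and the wild type rise was 0.98 ± 0.16 (adjusted p = 0.0063). Mcm6 was at 18.3 and 19.9, then 29.6 and 33.7 in wild type and at 17.4 and 21.7, then 22.8 and 24.3 in Cd69-/-, with a rise of 0.70 ± 0.14 (adjusted p = 0.015). Mcm7 was at 11.7 and 12.5, then 17.8 and 21.2 in wild type and at 11.6 and 15.7, then 15.9 and 17.0 in Cd69-/-, with a rise of 0.64 ± 0.16 (adjusted p = 0.033). For each subunit the highest of the 8 libraries was wild type term diff replicate 2. The microRNA genes within Mcm7, Mir25, Mir93 and Mir106b, were listed at 0 in all libraries.

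**Figure D2:**
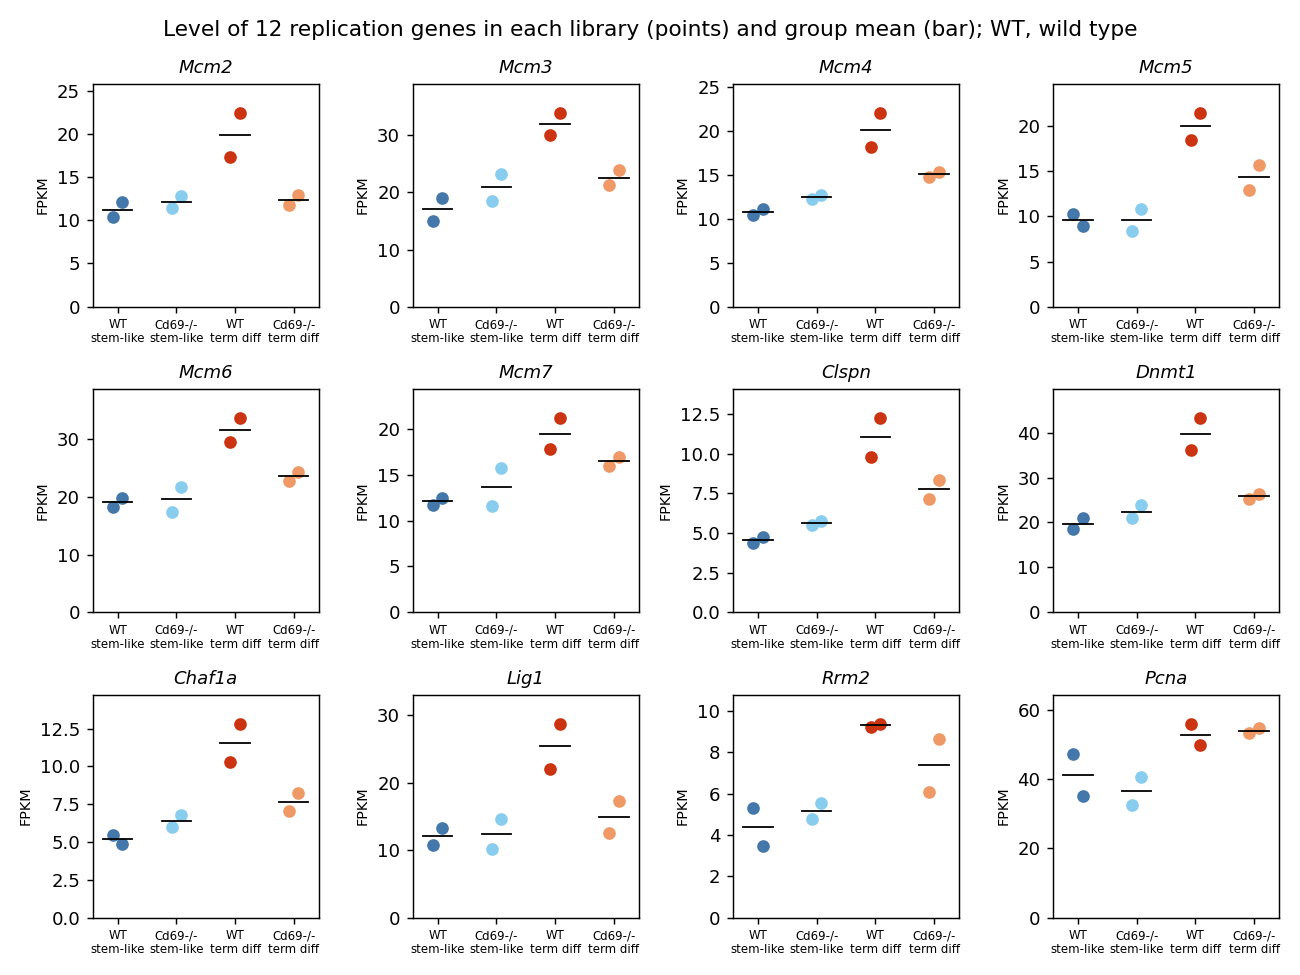
FPKM (vertical axis, from 0) of 12 of the genes in each library (points) and the group mean (bar), with 2 libraries in each of the 4 groups. Wild type term diff is highest in 11 of the 12 panels, and in the panel of Pcna both term diff groups lie at 49.8 to 56.1 FPKM.

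The genes that switch the loaded helicase on rose in 3 of 4 cases. Mcm10, which helps the helicase to open the double strand, was at 2.67 and 2.15 FPKM, then 4.84 and 6.03 in wild type, and at 2.44 and 3.26, then 3.59 and 3.80 in Cd69-/-. It rose by 0.92 ± 0.16 (adjusted p = 0.0089). Cdc45, a subunit of the active helicase, was at 3.62 and 3.92, then 6.75 and 6.80 in wild type, and at 3.27 and 4.68, then 4.44 and 4.16 in Cd69-/-, so the Cd69-/- subsets overlapped. Its wild type rise was 0.70 ± 0.15 (adjusted p = 0.020). Gins1, a subunit of the GINS complex, was at 1.97 and 2.12, then 3.25 and 3.23 in wild type, but at 3.16 and 3.74, then 2.36 and 2.74 in Cd69-/-. Its order of subsets was thus opposite in the 2 genotypes. It rose in wild type by 0.48 ± 0.13 (adjusted p = 0.049), a call on 6 to 20 implied fragments per library that was lost in 18 of 23 alternatives. Gins2, which overlaps Gse1 in the tables, was not called (0.73 ± 0.30, adjusted p = 0.16).

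Of the 6 polymerase and primase genes 3 rose. Prim2, the large primase subunit, was at 3.34 and 2.92 FPKM, then 5.49 and 6.96 in wild type, and at 3.89 and 5.24, then 4.47 and 4.85 in Cd69-/-, where the subsets overlapped. It rose by 0.80 ± 0.16 (adjusted p = 0.016). Pold1, the catalytic subunit of the polymerase of the lagging strand, was at 4.81 and 3.98, then 6.94 and 7.97 in wild type, and at 4.44 and 4.80, then 3.70 and 4.79 in Cd69-/-. Pole, its counterpart on the leading strand, was at 3.89 and 4.08, then 6.15 and 8.55 in wild type, and at 3.87 and 4.70, then 4.43 and 5.30 in Cd69-/-. Both separated the wild type subsets and overlapped between the Cd69-/- subsets. Pold1 rose by 0.65 ± 0.15 and Pole by 0.73 ± 0.17 (adjusted p = 0.026 for each). Pola1, Pola2 and Prim1, of the complex that starts each new strand, had differences of 0.37 to 0.43 that did not pass (adjusted p = 0.091 to 0.15).

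Of the clamp, its loader and the enzymes that join fragments, 2 of 7 rose. Pcna, the clamp, had the highest FPKM of the 46 in every library. It was at 47.4 and 35.1 FPKM, then 56.1 and 49.8 in wild type, and at 32.7 and 40.6, then 53.4 and 54.8 in Cd69-/-. Its 2 term diff groups overlapped, and the wild type difference of 0.37 ± 0.18 did not pass (adjusted p = 0.22). Fen1, the flap nuclease, was at 7.48 and 7.10, then 10.6 and 10.7 in wild type, and at 8.03 and 8.80, then 9.73 and 10.1 in Cd69-/-. It rose by 0.50 ± 0.11 (adjusted p = 0.022). Lig1, the ligase that seals the lagging strand, was at 10.8 and 13.3, then 22.0 and 28.8 in wild type, and at 10.2 and 14.6, then 12.5 and 17.3 in Cd69-/-. Its wild type subsets lay far apart and its Cd69-/- subsets overlapped, with a wild type rise of 1.01 ± 0.22 (adjusted p = 0.022). The clamp loader genes Rfc2 to Rfc5 had differences of 0.23 to 0.57 and none passed (adjusted p = 0.18 to 0.26), Rfc4 overlapping Eif4a2 (32.1 to 40.8 FPKM) in the tables. None of the 3 genes of RPA, the complex that coats single-stranded DNA, passed in wild type. Rpa2 was nearest (0.64 ± 0.20, adjusted p = 0.072), and Rpa3, on 6 to 20 implied fragments per library, was at -0.29 ± 0.36.

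Among the 5 nucleotide supply genes 3 rose. Rrm2, the S phase subunit of ribonucleotide reductase, was at 5.33 and 3.44 FPKM, then 9.24 and 9.38 in wild type, and at 4.76 and 5.55, then 6.09 and 8.64 in Cd69-/-. Neither genotype's subsets overlapped, and the wild type rise was 0.96 ± 0.20 (adjusted p = 0.019). Tk1, thymidine kinase, was at 6.95 and 9.70, then 14.1 and 14.2 in wild type, and at 8.90 and 8.03, then 12.9 and 12.7 in Cd69-/-, a similar step in both genotypes. It rose by 0.71 ± 0.15 in wild type (adjusted p = 0.019), with Afmid overlapping it in the tables. Rrm1, the large reductase subunit, rose by 0.62 ± 0.16 (adjusted p = 0.036). Dut, which removes dUTP, and Tyms, thymidylate synthase, did not pass (adjusted p = 0.084 and 0.11). Tyms was at 1.02 to 2.32 FPKM and the related row Tyms-ps at 0.203 to 0.516, and how reads were divided between them is not given in the sources used here.

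All 4 genes that copy chromatin and DNA methylation behind the fork rose. Dnmt1 (chr9:20907206-20959888), the maintenance DNA methyltransferase, was at 18.5 and 20.9 FPKM, then 36.2 and 43.2 in wild type, and at 21.1 and 23.8, then 25.3 and 26.4 in Cd69-/-. No 2 groups overlapped, and wild type term diff stood well above the other 3, with a rise of 0.97 ± 0.14 (adjusted p = 0.0031). Uhrf1, which brings Dnmt1 to hemimethylated sites, was at 6.88 and 6.99, then 11.1 and 12.1 in wild type, and at 6.81 and 8.52, then 6.84 and 8.73 in Cd69-/-, and rose by 0.67 ± 0.15 (adjusted p = 0.023). Chaf1a (chr17:56040416-56068026), of the factor that places histones on new DNA, was at 5.48 and 4.90, then 10.3 and 12.8 in wild type, and at 6.03 and 6.80, then 7.08 and 8.25 in Cd69-/-. It rose by 1.02 ± 0.14 (adjusted p = 0.0033). Its partner Chaf1b was at 1.35 and 1.64, then 3.95 and 3.02 in wild type, and at 1.97 and 2.14, then 2.91 and 3.06 in Cd69-/-, so that the 2 term diff groups overlapped. It rose by 0.84 ± 0.15 (adjusted p = 0.0086).

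Of the 4 regulators of S phase entry only Ccne1 rose. Ccne1, cyclin E1, was at 1.78 and 0.913 FPKM, then 3.73 and 2.94 in wild type, and at 1.33 and 2.49, then 2.44 and 2.55 in Cd69-/-, and rose by 0.90 ± 0.24 (adjusted p = 0.043), a call lost in 16 of 23 alternatives. Ccne2, cyclin E2, was at 1.23 and 1.31, then 1.5 and 1.64 in wild type, and at 1.25 and 1.21, then 1.52 and 1.05 in Cd69-/- (0.18 ± 0.15, adjusted p = 0.49). E2f1, an activating E2F, was at 1.44 and 1.70, then 2.72 and 3.06 in wild type, and at 1.4 and 0.890, then 1.52 and 2.21 in Cd69-/-. Its wild type term diff pair was above the other 6 libraries, yet the difference of 0.60 ± 0.18 did not pass (adjusted p = 0.066). E2f2, another activator, ranged from 1.12 to 1.79 FPKM across the libraries, with a difference of -0.18 ± 0.16 (adjusted p = 0.51).

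Both fork protection genes rose. Clspn (chr4:126556980-126593903), claspin, which couples the fork to its checkpoint, had the smallest p of the 46: 4.38 and 4.73 FPKM, then 9.81 and 12.2 in wild type, and 5.48 and 5.75, then 7.15 and 8.35 in Cd69-/-. The 4 groups did not overlap, and the wild type rise was 1.11 ± 0.14 (adjusted p = 0.0020). Timeless, a fork protection subunit, was at 3.28 and 3.59, then 5.68 and 8.24 in wild type, and at 3.39 and 4.65, then 4.29 and 4.97 in Cd69-/-, and rose by 0.83 ± 0.19 (adjusted p = 0.025). Slbp, which binds the stem-loop of replication-dependent histone mRNA, did not pass (0.39 ± 0.14, adjusted p = 0.11).

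The calls in wild type rested on few libraries. Mcm4, Mcm5, Dnmt1, Chaf1a and Clspn passed whichever 1 library was left out, with adjusted p of at most 0.0288, 0.0454, 0.0234, 0.0249 and 0.0168. The other 22 lost the call at least once, at adjusted p of 0.0581 (Orc1) to 0.196 (Cdt1), and the count was 8 without wild type stem-like replicate 1, 13 without replicate 2, 15 without wild type term diff replicate 1 and 7 without replicate 2. Without replicate 2 of both wild type groups, 4 genes passed, Chaf1b, Clspn, Dnmt1 and Tk1. With each library rescaled to an equal sum of FPKM 0 passed (1.55% of all genes), although the median was then higher (0.83).

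In Cd69-/- cells the same subset comparison called 0 of the 46 genes in limma, against 3.88% of all genes higher and 5.56% lower. At unadjusted p under 0.05, 11 were higher and 1 lower (10.5% and 14.2% of all genes). The median difference was 0.22, against -0.03 over all genes, 40 of 46 were above 0 (45.9% of all genes), and both term diff libraries were above both stem-like libraries for 22 (24.5% of all genes). Tk1 had the smallest p (0.55 ± 0.15, adjusted p = 0.059), followed by Rpa2 (0.67 ± 0.20, adjusted p = 0.075), whose term diff libraries stood at 16.9 and 10.8 FPKM against 7.36 and 9.05 in stem-like, and Mcm5 (0.53 ± 0.16, adjusted p = 0.080). For Pcna the difference was 0.56 ± 0.18 (adjusted p = 0.090), with both term diff above both stem-like libraries. By role, the medians were 0.24 for licensing, 0.13 for helicase activation, 0.03 for polymerases and primase, 0.22 for the clamp, loader and ligation, 0.43 for nucleotide supply and 0.21 for chromatin copying, against 0.77, 0.72, 0.54, 0.50, 0.62 and 0.91 in wild type. Regulators of S phase entry had a median of 0.16, against 0.39 in wild type, and fork protection with Slbp one of 0.40, against 0.83. The 3 RPA genes had a median of 0.67 in Cd69-/- against 0.43 in wild type, but they did not move alike. Rpa1 was at 0.23 in Cd69-/- against 0.43 in wild type, and Rpa2 at 0.67 against 0.64. Only Rpa3, on few fragments, differed widely in that direction (0.69 against -0.29). With 1 library left out, the median of the 46 ran from 0.074 (without Cd69-/- stem-like replicate 1) to 0.33. The count moved with the method: voom on the implied fragments called 7, Clspn, Mcm5, Pcna, Rfc2, Rpa2, Slbp and Tk1, all higher. Voom also called more of all genes between the wild type subsets, 19.1% against 13.1% in the fit reported.

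**Figure D3:**
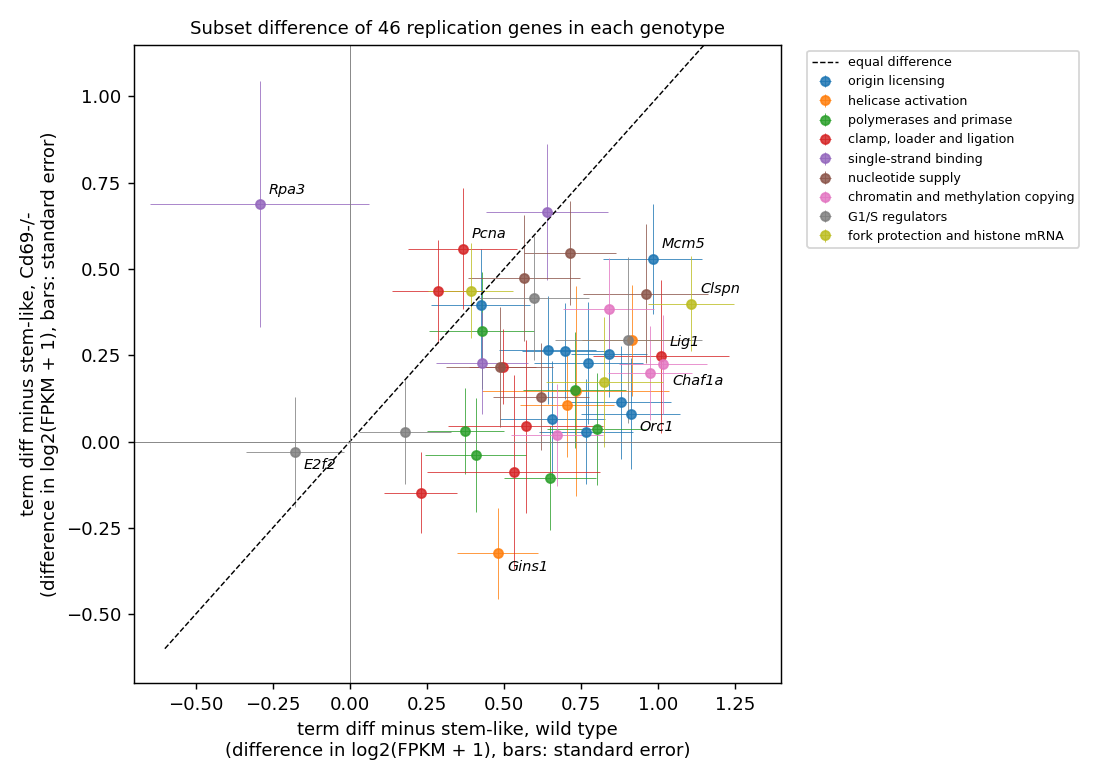
Term diff minus stem-like in wild type (horizontal axis) against the same in Cd69-/- (vertical axis), both as difference in log2(FPKM + 1) with standard errors as bars, 1 point per gene, coloured by role. Most points lie below the dashed line of equal difference, 40 of 46 with a negative interaction, while Pcna and Rpa3 lie above it.

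Between genotypes no replication gene was called. In stem-like cells 0 of 46 passed (0.0409% of all genes higher, 0.112% lower) and the median was 0.11, against 0.06 over all genes. At unadjusted p under 0.05, 3 were higher and 0 lower (4.74% and 2.51% of all genes). Gins1 had the smallest p there (0.55 ± 0.13, adjusted p = 0.34), with both Cd69-/- above both wild type libraries. The stem-like median was 0.25 without Cd69-/- stem-like replicate 1 and -0.013 without replicate 2. In term diff cells 0 passed (0.112% of all genes higher, 0.0818% lower), and the median was -0.34, against -0.05 over all genes. There 42 of 46 were below 0 (57.9% of all genes), 19 of them and 0 higher at unadjusted p under 0.05 (8.88% of all genes lower, 6.26% higher), and both wild type were above both Cd69-/- libraries for 32 (28.1% of all genes). Pold1 had the smallest p (-0.69 ± 0.15, adjusted p = 0.15), its Cd69-/- libraries at 3.70 and 4.79 against 6.94 and 7.97 FPKM, and Lig1 the difference farthest below 0 (-0.74 ± 0.22, adjusted p = 0.23). With voom on the implied fragments, 4 passed in term diff, Cdt1, Dnmt1, Mcm2 and Pold1, all lower in Cd69-/-. Averaged over the subsets 0 passed (0.266% of all genes higher, 0.276% lower), with a median of -0.10 (-0.056 without Cd69-/- stem-like replicate 1, -0.17 and -0.046 without wild type term diff replicate 1 or 2) and 6 lower and 0 higher at unadjusted p under 0.05 (5.43% and 6.96% of all genes). The sum of the CD8+ T cell markers moved the other way in term diff, at 1407.5 to 1573 FPKM in Cd69-/- against 1081 to 1133 in wild type. Of the 8 markers 0 were called, and their differences ran from -0.008 (Ptprc) to 0.88 (Cd8b1), with Cd3e at 0.06 and Cd8a at 0.12. The part of these markers in the differences above was not tested.

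Whether the subset difference itself depended on genotype is given by the interaction, the genotype difference of the term diff libraries less that of the stem-like ones. In limma 0 of the 46 passed (0.0204% of all genes higher, 0.0102% lower), and 17 were lower and 0 higher at unadjusted p under 0.05 (6.36% and 2.73% of all genes). The median was -0.51, against -0.10 over all genes, and 40 of 46 were below 0 (63.1% of all genes). The smallest p were those of Gins1 (-0.80 ± 0.19), Dnmt1 (-0.78 ± 0.19) and Chaf1a (-0.79 ± 0.20), each with an adjusted p of 0.54. A difference between the genotypes in how these genes separate the subsets was thus not shown for any single gene. The comparisons within wild type, between genotypes in term diff and of the interaction share the 2 wild type term diff libraries, in which these genes were highest, so they are not independent of each other.

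The difference between genotypes in term diff also ran with transcript length over all genes. Genes other than the 46 had a median of 0.35 where the longest transcript was at most 1000 bases and of -0.16 above 6000 bases. The replication genes, with a median length of 3166.5 bases against 3241 over all genes, lay below their class in all but the shortest: medians of -0.26 at 1000 to 2000, -0.27 at 2000 to 3000, -0.40 at 3000 to 4000, -0.41 at 4000 to 6000 and -0.52 above 6000 bases. The class up to 1000 bases held only Rpa3 (0.80). The Cd69-/- subset difference ran with length too, with medians of other genes of 0.31 up to 1000 bases and -0.17 above 6000. For the interaction these were 0.31 and -0.21, while between the wild type subsets every class lay between -0.004 and 0.08. Between the Cd69-/- subsets the replication genes lay above their class throughout. Their medians were 0.69 (Rpa3 alone), 0.40, 0.24, 0.11, 0.23 and 0.19 from the shortest class to the longest. With each library adjusted for transcript length, an alternative chosen after seeing the data, the median was -0.32 in term diff and -0.36 for the interaction, and 25 genes passed between the wild type subsets.

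**Figure D4:**
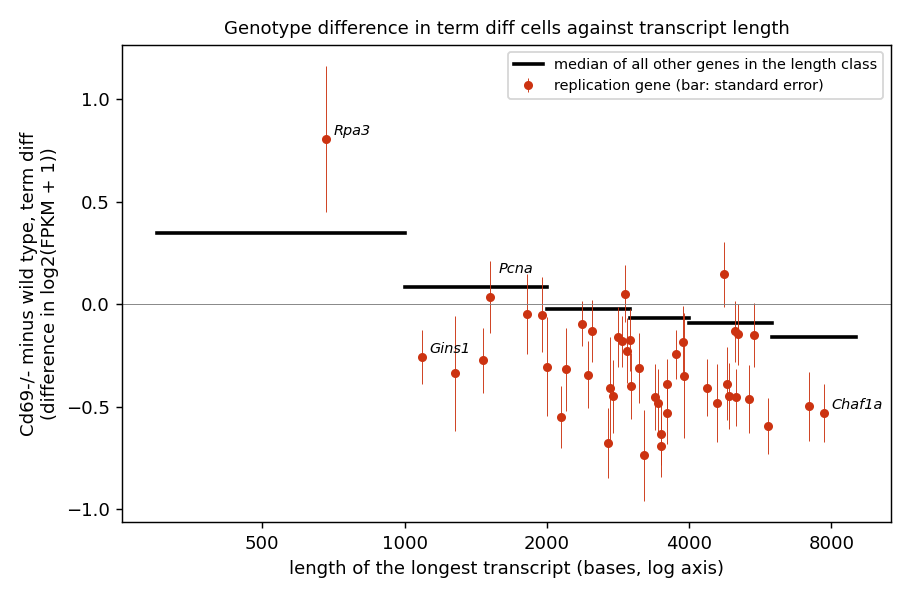
Cd69-/- minus wild type in term diff (vertical axis, difference in log2(FPKM + 1), bars for standard errors) against the length of the longest transcript (horizontal log axis, bases). Each point is 1 of the 46 genes and each black line the median of all other genes in a length class, which falls from 0.35 to -0.16; most points lie below the line of their class.

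Genes outside the 46 were read from further lists. Of 52 other replication factors 51 met the expression minimum, and 11 rose and 0 fell between the wild type subsets (median 0.35), against the 7.24% and 5.83% of all genes given above. Topbp1, which activates the checkpoint kinase Atr, was at 12.9 and 14.6 FPKM in stem-like and 23.9 and 25.6 in term diff, a rise of 0.80 ± 0.13 (adjusted p = 0.0066). Atad5, which unloads Pcna, rose by 0.77 ± 0.15 (adjusted p = 0.013) and Ccna2, cyclin A2, by 0.68 ± 0.15 (adjusted p = 0.020). In Cd69-/- 1 of the 51 rose (3.88% of all genes), namely Rnaseh2c, a subunit of ribonuclease H2 (0.77 ± 0.19, adjusted p = 0.044). The median of the 51 there was 0.15, against -0.03 over all genes, and 37 were above 0 (45.9% of all genes).

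Of 21 genes listed as brakes on S phase entry 19 met the minimum, and 4 rose and 1 fell between the wild type subsets (7.24% and 5.83% of all genes). The list also held E2f3, an E2F factor usually grouped with the activators, which did not pass (0.39 ± 0.15, adjusted p = 0.14). Rbl2, the retinoblastoma family member p130, rose from 23.1 and 28.2 to 44.8 and 50.5 FPKM (0.87 ± 0.14, adjusted p = 0.0067), and Rbl1, its relative p107, by 0.62 ± 0.16 (adjusted p = 0.036). E2f7 and E2f8, repressors that other E2F factors are known to induce, rose by 0.81 ± 0.19 (adjusted p = 0.025) and 0.63 ± 0.16 (adjusted p = 0.038). Cdkn2d, an inhibitor of Cdk4 and Cdk6, fell from 4.56 and 3.88 to 0.623 and 2.06 FPKM (-1.22 ± 0.26, adjusted p = 0.019). In Cd69-/-, where 3.88% of all genes rose and 5.56% fell, Rbl2 rose (0.62 ± 0.14, adjusted p = 0.034) and Klf2, a quiescence factor, fell from 11.8 and 6.07 to 2.51 and 2.77 FPKM (-1.39 ± 0.26, adjusted p = 0.013). Of 17 mitosis genes, counted for comparison, 10 rose between the wild type subsets (7.24% of all genes) and 0 in Cd69-/- (3.88%).

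**Figure D5:**
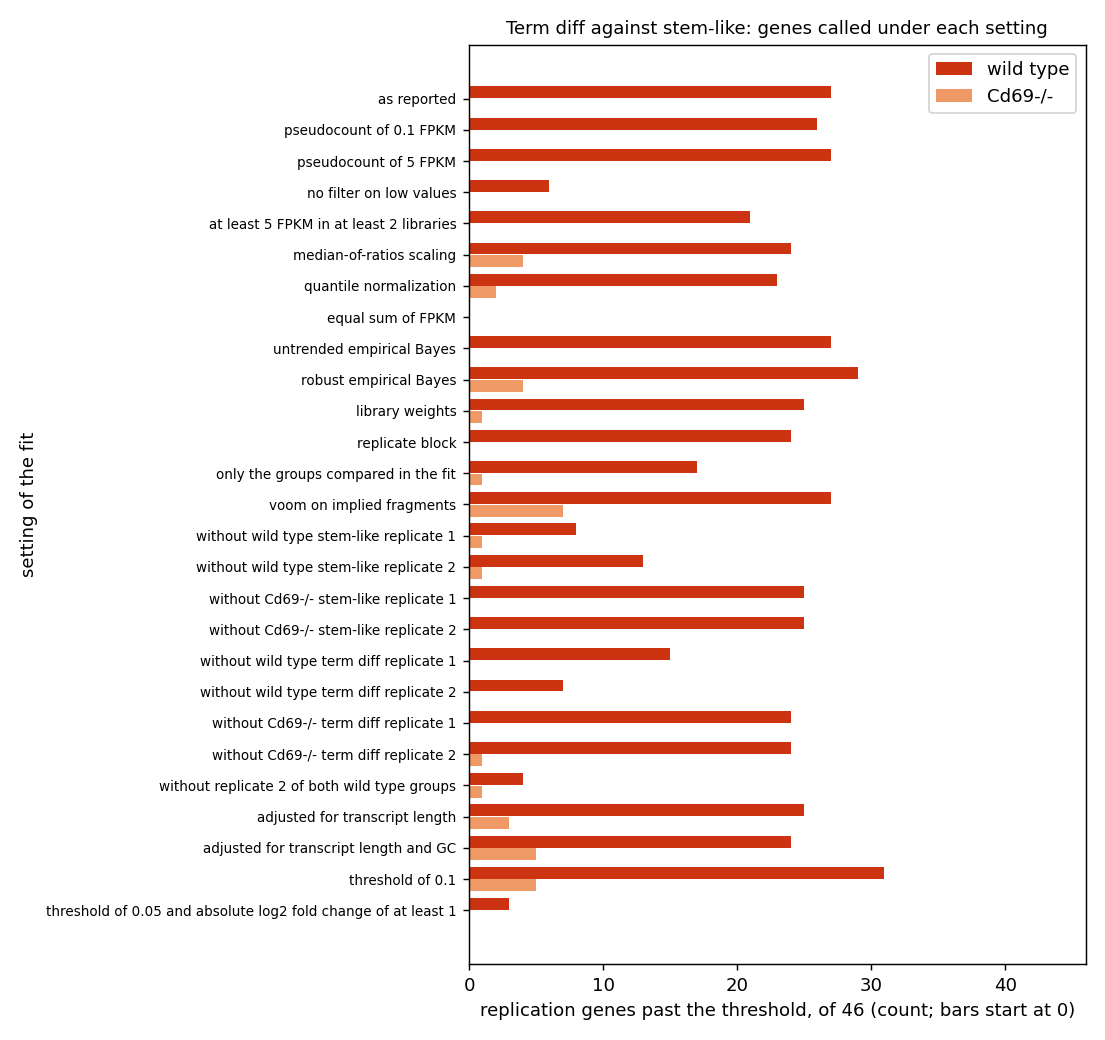
Number of the 46 genes past the threshold between the subsets (horizontal axis, count from 0) under each setting of the fit (vertical axis), in wild type (dark) and Cd69-/- (light). The wild type count runs from 0 with an equal sum of FPKM to 31 at a threshold of 0.1, and the Cd69-/- count from 0 to 7.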

How the data were processed

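Libraries were made from sorted cells with a low-input stranded total RNA kit and read single-end, per the labels' protocols. Values are the FPKM the authors deposited, 1 table of 23746 rows per library. Tools listed in the submitters' processing notes are Cufflinks 2.2.1, TopHat 1.3.2, Bowtie2 2.3.4 and bcl2fastq 2.20, with the build mm10. The annotation, strand setting and FPKM total are not given in the sources used here, so antisense and overlapping genes may share reads.

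From these values log2(FPKM + 1) was computed, without further scaling. The added 1 FPKM understates changes of low genes. The expression minimum was 1 FPKM in 2 or more libraries, and 3 genes with a status other than OK were left out. A model of 4 group means over all 8 libraries was fitted to all 9782 genes with limma 3.58.1 in R 4.3.3 (trended empirical Bayes, 4 residual and 4.2 prior degrees of freedom), 2-sided, with Benjamini-Hochberg adjustment over all genes and a threshold of 0.05. The fit was tested on simulated data. No read counts were used, but the width of the deposited confidence limits implied fragments. Of rows under 15 such fragments, 69.4% to 70.0% lay within 0.05 of a whole number, so they are approximate and cover counting error only.

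The 46 genes, the further lists and the tests were chosen with earlier results of these data known. Values in every library are given for up to 24 genes past the threshold, for Mcm2 to Mcm7, Pcna, Rrm2, E2f1, Ccne1 and Ccne2, and for the 3 with the smallest interaction p. Of further lists, up to 4 genes with the smallest p in wild type are named, and 1 of them is not reported here. Rnaseh2c, Rbl2 and Klf2 in Cd69-/-, E2f8, and members named for a role or an alternative, were chosen after their values were seen. Transcript length (9663 genes, 98.8%) came from the GENCODE annotation provided, with promoters from RefSeq. Alternatives were pseudocounts of 0.1 and 5, other filters, scalings and fits, a replicate block, libraries left out and other thresholds. Adjustments for transcript length, alone or with GC content, were chosen after seeing the data.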

Additional observations from a re-analysis of the deposited data

How the results depend on the processing

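Between the wild type subsets, 27 of 46 genes passed. The count fell to 17 with only the groups compared in the fit, to 6 with no filter on low values, to 4 without replicate 2 of both wild type groups, to 3 where an absolute difference of at least 1 was also required, and to 0 with an equal sum of FPKM. It ran from 7 to 25 with 1 library left out. In Cd69-/-, where 0 passed, the count was 7 with voom, 5 at a threshold of 0.1, 5 with adjustment for transcript length and GC (4 higher and Gins1 lower), 4 with median-of-ratios scaling or robust empirical Bayes, 3 with adjustment for length (2 higher and Gins1 lower), 2 with quantile normalization, 1 with library weights, with only the groups compared or without replicate 2 of both wild type groups, and 0 to 1 with 1 library left out. Between genotypes in term diff, voom called 4. The equal sum turned the median subset difference in Cd69-/- to -0.10 and the median genotype difference in stem-like to -0.35. That last median ran from -0.013 (without Cd69-/- stem-like replicate 2) to 0.25 with 1 library left out. Rfc4 turned to -0.12 without replicate 2 of both wild type groups, and Rpa3 ran from -0.65 to 0.061, above 0 only without wild type stem-like replicate 1. The cause was not tested.

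The labels do not say whether replicate numbers pair the libraries. Deviations of same-numbered libraries correlated at -0.297 to 0.152 over genes, which cannot settle whether they share a mouse or batch. With the replicate block 24 passed in wild type and 0 in the other comparisons. The equal sum moved the median of all genes by 0.152 between the wild type subsets, by -0.295 between the Cd69-/- subsets, by -0.458 between genotypes in stem-like and by -0.897 in term diff, and median-of-ratios scaling moved the interaction by 0.105. With 6 to 20 implied fragments per library, Gins1 and Rpa3 had the fewest fragments behind them.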
